A study of Rhamphochromis sp. 'chilingali' and Astatotilapia calliptera with 50 samples.

Results

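The pair of genes described here, sox10a (ENSACLG00000009200) and sox10b (ENSACLG00000016156), was followed through somitogenesis, the period in which the embryo lays down its somites. Their rows were found by identifier, and the pair was chosen with earlier results of these data known. They are 2 of the 28001 genes in the table, and both passed the filter on low values. RNA was sequenced from single whole embryos of Rhamphochromis sp. 'chilingali' (RC) and Astatotilapia calliptera 'Mbaka' (AC), cichlids of Lake Malawi. The 26 RC embryos were staged at 4, 10, 15, 18, 20, 22, 26, 30 and 37 somites (ss), with 3 embryos per stage except for 2 at 4ss. The 24 AC embryos were 3 for each stage of 4, 10, 15, 18, 20, 22, 27 and 30ss, and AC of 27ss was set against RC of 26ss. No embryo was treated or edited. All embryos of a species came from 1 egg clutch, so a difference between the species and a difference between the clutches cannot be told apart, and p-values measure the spread between siblings.

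Sox10 is a transcription factor of the soxE family. It is known from zebrafish and mouse for its roles in neural crest (NC) cells, the migratory cells of the vertebrate embryo that give rise to pigment cells, peripheral neurons and glia and much of the head skeleton. Sox10 helps to maintain NC cells as progenitors and later acts in pigment cell and glial lineages, and it is also made in the otic vesicle. The ancestor of teleost fishes went through a duplication of the whole genome, and sox10a and sox10b are paralogs, copies of 1 ancestral gene.

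The depth was 17619762 to 27454591 reads on genes per embryo. Values are normalized counts, in which the reads of an embryo are divided by a size factor that makes embryos comparable. They are not divided by gene length, so a level can be compared between embryos but not between the 2 genes. The ratio of the paralogs can be compared between embryos of a species, since the lengths are the same in each. Reads of RC were mapped to the AC genome, and only reads with 1 best place were counted, so reads from stretches that the paralogs share are not in these values. Whether this mapping lowered the RC counts, or those of 1 paralog more than the other, was not tested. It bears on levels and ratios compared between the species. The RNA is from whole embryos, in which fewer sox10-expressing cells and less sox10 RNA per cell cannot be told apart. Of the lists of other tissues that express sox10, no gene of the otic vesicle and oligodendrocyte lists could be matched to an identifier here, so their part was not tested.

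At 4ss, sox10a was already present in every embryo of both species, and sox10b was detected in RC only. sox10a had 230 and 488 normalized counts in the RC embryos of 4ss, against 26.4, 131 and 195 in the AC embryos. Both RC embryos lay above all AC embryos. sox10b had 13.3 and 68.7 normalized counts in RC, which are 12 and 78 reads, against 0 reads in each of the 3 AC embryos. A count of 0 allows up to 3 reads, or 2.83 to 3.90 normalized counts in these AC embryos, with counting error only. With the AC mean set at that limit of 3.47 normalized counts, sox10b was at least 11.8-fold higher in RC, and the lower RC embryo was at least 3.83-fold higher. sox10a was higher in RC by a log2 fold change of 1.92 (standard error, SE, 0.43, adjusted p = 0.000665, limma). This is the change on log2(normalized count + 1), and a gene was called at an adjusted p under 0.05 with an absolute log2 fold change above 0.58. The call of sox10a was lost when only the embryos of 4ss entered the fit (adjusted p = 0.203) and without RC replicate 3, when the value was 1.38. sox10b was also called by limma (adjusted p = 4.27e-15, with all embryos from 4 to 30ss in the fit). This p uses a spread shared over all stages, to which the AC embryos of 4ss, all at 0, add none. The 2 RC embryos of 4ss lay 1.14 to either side of their mean on the log2 scale. Leaving out 1 replicate at a time moved the log2 fold change over 3.84 to 6.12. At this stage 25.4% of all genes tested were called, 15.7% as higher in RC.

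Between 4ss and 10ss both paralogs rose in both species. sox10a had 1284, 3002 and 1805 normalized counts in the RC embryos of 10ss. In the AC embryos of 10ss it had 1133, 2016 and 1911. The embryos of the 2 species overlapped, and the RC mean rested in part on the single embryo with 3002. The step was a log2 change of 2.51 in RC (SE 0.42, adjusted p = 2.52e-05, limma) and of 4.20 in AC (SE 0.37, adjusted p = 1.26e-11, limma). The step of sox10a in RC lost its call when only the embryos of these stages entered the fit (adjusted p = 0.0708). sox10b had 769, 1000.7 and 999.6 normalized counts in RC and 592, 914 and 865 in AC at 10ss. It rose by a log2 change of 4.86 in RC (SE 0.30, adjusted p = 3.16e-15, limma). In AC the mean at 10ss was at least 228-fold above the limit at 4ss, and the step was called (adjusted p = 4.85e-26, limma). Both p-values of sox10b use the spread shared over all stages. Of all genes tested, 14.2% were called in this step in RC and 29.4% in AC.

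The rise of both genes was smaller in RC than in AC over this step. For sox10b the RC step minus the AC step was -4.74 on the log2 scale (SE 0.40, adjusted p = 1.70e-10, limma). Its size depends on the pseudocount because AC embryos had no read at 4ss, and the call was lost with only the embryos of these stages in the fit (adjusted p = 0.0644). For sox10a the difference was -1.69 (SE 0.56, adjusted p = 0.0443, limma), and 11.3% of all genes passed this test. That of sox10a lost its call in 11 of 16 alternative fits, among them all 3 without an RC replicate and those without AC replicate 1 or 2, and the adjusted p ran from 0.0284 to 0.429. At 10ss itself the species were close. The log2 fold change of RC over AC was 0.22 for sox10a (adjusted p = 0.737, limma) and 0.24 for sox10b (adjusted p = 0.591, limma), with a call for 14.1% of all genes.

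**Figure D1:**
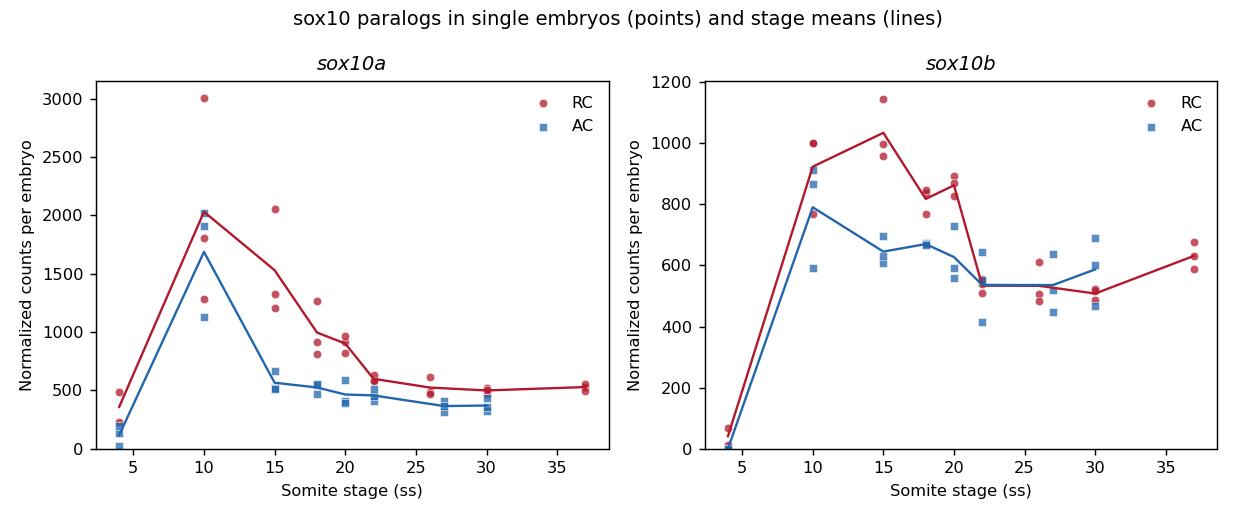
Normalized counts of sox10a (left) and sox10b (right) in each embryo (points, RC circles and AC squares) against the somite stage, with lines through the stage means. sox10a reached 2031 in RC and 1687 in AC at 10ss, and the AC line was down to 566 by 15ss, where the RC line stood at 1530.

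From 15ss to 20ss the sox10a levels of RC embryos lay above those of AC embryos. In RC, sox10a had 1207, 1327 and 2056 normalized counts at 15ss, 1268, 810 and 911 at 18ss, and 918, 966 and 821 at 20ss. In AC, it had 524, 512 and 662 at 15ss, 548, 554 and 473 at 18ss, and 408, 396 and 591 at 20ss. Every RC embryo lay above every AC embryo of the same stage at these stages. The log2 fold change of RC over AC was 1.40 at 15ss (SE 0.38, adjusted p = 0.00481, limma), where 23.3% of all genes were called, 9.86% as higher in RC. This call was lost without RC replicate 3 (1.17, adjusted p = 0.0684). It was 0.90 at 18ss (adjusted p = 0.0709, limma) and 0.98 at 20ss (adjusted p = 0.0794, limma), neither of which was called, beside 20.9% and 11.9% of all genes. Without the embryos of 4ss in the fit, a choice made after seeing the data, sox10a was called at 15ss (adjusted p = 1.89e-05), 18ss (0.00316) and 20ss (0.00256) by limma.

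After 10ss, 1 of 6 single steps was called for sox10a in AC and 0 of 7 in RC, and the step called in AC was not shown to differ between the species. In AC the change between 10ss and 15ss was -1.54 (SE 0.37, adjusted p = 0.00495, limma), with 8.28% of all genes called in this step. The call was lost without AC replicate 2 (-1.32, adjusted p = 0.101). None of the later AC steps was called for either gene, beside 5.71%, 0.0%, 0.655%, 0.684% and 0.17% of all genes in the steps that end at 18, 20, 22, 27 and 30ss, and the levels of neighbouring AC stages overlapped. The RC steps, none of them called for either gene, stood beside 0.825%, 0.0%, 0.113%, 1.17%, 0.528%, 0.0141% and 0.306% of all genes in the steps that end at 15, 18, 20, 22, 26, 30 and 37ss. The RC change of sox10a between 10ss and 15ss was -0.36 (adjusted p = 0.919, limma), and the sign turned without RC replicate 2. The difference between the species in this step, 1.18, was not past the threshold (adjusted p = 0.348, limma; 0.0896% of all genes were).

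Over the longer span the fall of sox10a was called in both species. Its log2 change between 10ss and 30ss was -1.93 in RC (SE 0.37, adjusted p = 6.23e-05, limma) and -2.15 in AC (SE 0.37, adjusted p = 1.18e-05, limma). Over this span 30.7% of all genes were called in RC and 31.9% in AC. Called as lower were 6.11% in RC and 7.59% in AC, or 17.5% and 18.7% under quantile normalization. At 22ss sox10a had 590, 630 and 579 normalized counts in RC and 409, 454 and 510 in AC. It had 487, 616 and 471 in RC of 26ss and 413, 319 and 366 in AC of 27ss. At 30ss it had 523, 469 and 507 in RC and 323, 431 and 358 in AC. RC embryos were again above AC embryos at each of 22, 26 and 30ss. The log2 fold changes of 0.40 to 0.52 were not called (adjusted p = 0.445 to 0.576, limma), beside 10.8%, 9.93% and 10.4% of all genes. These fold changes lie under the threshold of 0.58, so no adjusted p could have made them calls. In order of stage, the lowest adjusted p over the alternative fits (limma, edgeR or DESeq2) was 0.0434, 0.0312 and 0.0452. Leaving out the embryos of 4ss gave 0.271, 0.135 and 0.218 (limma). The level at 30ss was 24.6% of the peak in RC and 22.0% in AC. Compared with 4ss, the level at 30ss was higher in AC (log2 change 2.05, adjusted p = 9.22e-06, limma; 55.5% of all genes were called) and was not called in RC (0.57, adjusted p = 0.264, limma; 39.3%). The log2 fold change of sox10a was above 0 at all 8 shared stages, but at 10ss the sign turned without AC replicate 1 (-0.04) or RC replicate 2 (-0.10), and 2 stages were called. The embryos did not overlap at 7 of the 8 stages for sox10a, and 9.36% of all genes tested had as many such stages or more.

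sox10b took another course after 10ss and kept more of its peak level. It had 957, 998 and 1146 normalized counts in RC and 608, 630 and 697 in AC at 15ss. All RC embryos were above all AC embryos, by a log2 fold change of 0.68 (SE 0.27). This value just missed the threshold (adjusted p = 0.0517, limma) and was past it in 9 of 17 alternative fits, among them edgeR (0.0170) and DESeq2 (0.00299) on the recovered reads. At 18ss sox10b had 836, 847 and 770 in RC and 673, 669 and 667 in AC, and at 20ss 826, 891 and 869 in RC and 592, 560 and 730 in AC. The RC embryos lay above the AC embryos at both stages, with log2 fold changes of 0.29 and 0.47 that were not called. From 22ss the species overlapped, with 509, 538 and 554 in RC and 414, 642 and 552 in AC at 22ss. It had 506, 612 and 482 in RC of 26ss and 521, 448 and 637 in AC of 27ss, and 487, 515 and 521 in RC and 468, 690 and 603 in AC at 30ss. The log2 fold changes from 22ss ranged from -0.19 to 0.02. The embryos did not overlap at 4 of the 8 shared stages for sox10b, and 38.6% of all genes tested had as many or more.

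Between 20ss and 22ss in RC, no embryo of 22ss reached the level of any embryo of 20ss in either gene. The share of all genes without overlap in this step was not counted, so the gap is a description only. Neither change was called, as for all but 1.17% of all genes. The log2 change was -0.69 for sox10b (SE 0.26, adjusted p = 0.201, limma) and -0.59 for sox10a (SE 0.37, adjusted p = 0.479, limma). That of sox10b was called without the embryos of 4ss (adjusted p = 0.0124, limma) and with DESeq2 (adjusted p = 0.0186). Over the span between 10ss and 30ss, sox10b fell in RC by a log2 change of -0.85 (SE 0.26, adjusted p = 0.00874, limma), a call that was lost without RC replicate 2 (-0.80, adjusted p = 0.109). Of all genes, 6.11% were called lower in RC over this span. In AC the change over the same span was -0.42 and not called (adjusted p = 0.204, limma). At 30ss sox10b stood at 49.1% of its peak in RC, which was at 15ss, and at 74.3% of its peak in AC, which was at 10ss. RC embryos of 37ss had 677, 630 and 587 normalized counts of sox10b, all above the 3 RC embryos of 30ss. The change was 0.31 and not called (adjusted p = 0.956, limma), and here too the share of all genes without overlap was not counted. sox10a had 533, 557 and 496 normalized counts in the RC embryos of 37ss, which overlapped with those of 30ss. The change in RC between 10ss and 37ss was -1.85 for sox10a (adjusted p = 9.38e-05, limma), with 33.6% of all genes called, and -0.54 for sox10b, which was not called (adjusted p = 0.0940, limma).

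In the order of stage means, 10ss was the highest for sox10a in both species. In AC this stage stood apart, with every embryo above those of 15ss, and the stages from 15ss to 30ss overlapped with their neighbours in the order. In RC the embryos of 10ss, 15ss and 18ss each overlapped with the next stage in the order, down to 20ss. Those of 20ss and 22ss did not overlap, nor did those of 22ss and 37ss, which came next, and 4ss was the lowest. How many of all genes have such gaps between stages was not counted. Without RC replicate 2 the highest RC mean of sox10a was at 15ss instead. For sox10b the highest mean was at 15ss in RC and at 10ss in AC, but the embryos of the first and second stage in the order overlapped in each species, and with medians the RC peak was also at 10ss. The first stage at 10% of the peak was 4ss for sox10a in RC and 10ss for sox10a in AC and for sox10b in both species, and under quantile normalization it was 4ss for sox10a in AC too.

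Whether the species difference changed across the 8 shared stages was tested with a moderated F-test. It passed for sox10b (F = 32.7, adjusted p = 3.30e-10, limma), as for 24.6% of all genes, and not for sox10a (F = 2.05, adjusted p = 0.160, limma). Without the embryos of 4ss, sox10b no longer passed (F = 3.63, adjusted p = 0.0603), so the result rested on that stage.

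**Figure D2:**
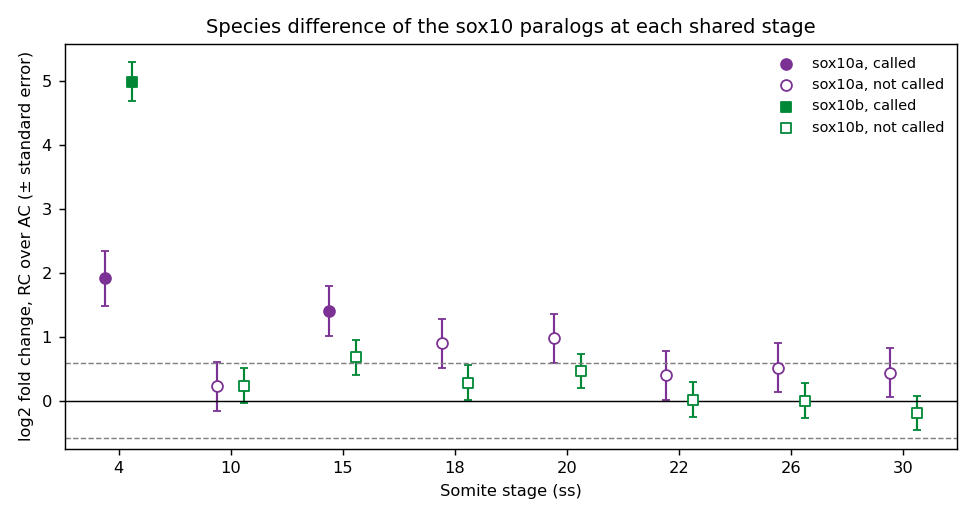
log2 fold change of RC over AC at each shared stage (circles sox10a, squares sox10b, filled where called, bars ± standard error of the limma fit, dashed lines at the fold threshold). sox10a was above 0 at all 8 stages and called at 4ss and 15ss, whereas sox10b was called at 4ss alone, where AC embryos had no read and the value of 4.98 depends on the pseudocount.

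RC forms more somites than AC, so embryos of equal somite number are at different shares of somitogenesis. Stages at about the same percentage of somitogenesis were therefore compared too. None of the 6 pairs was called for either gene, beside 18.2%, 14.2%, 17.1%, 12.7%, 11.7% and 7.47% of all genes in the pairs ordered by RC stage (15, 18, 22, 26, 30 and 37ss). The largest difference was that of sox10a in RC of 18ss over AC of 15ss, with a log2 fold change of 0.80 (SE 0.37, adjusted p = 0.125, limma), and it was called with only these embryos (adjusted p = 0.0354) and without those of 4ss (adjusted p = 0.00851). The RC embryos of 15ss and the AC embryos of 10ss, the first such pair, overlapped in sox10a with a log2 fold change of -0.14 (adjusted p = 0.830, limma). For sox10b the 6 values ran from -0.33 to 0.41.

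The balance of the paralogs moved away from sox10a as somites were added, in both species. The ratio of sox10a to sox10b was 17.3 and 7.10 in the RC embryos of 4ss. In the AC embryos of 4ss it was at least 9.33, 33.7 and 53.0, with sox10b at its limit of 3 reads. At 10ss the ratio was 2.16 ± 0.73 in RC and 2.11 ± 0.17 in AC (SD, n = 3 each), and the embryos of the species overlapped. It then declined to 0.986 ± 0.083 in RC and 0.636 ± 0.048 in AC at 30ss (SD, n = 3 each), and to 0.839 ± 0.048 in RC at 37ss (SD, n = 3). Since levels are not per length, a ratio of 1 does not mean equal numbers of transcripts.

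The log2 ratio differed between stages in RC (F = 29.4, n = 26) and in AC (F = 57.3, n = 24), with a permutation p = 1e-05 for both, the smallest that 100000 permutations can give. These F values include the AC ratios of 4ss, which rest on the pseudocount, and leaving out 1 replicate at a time moved the AC value over 20.1 to 334. Without the embryos of 4ss F was 9.08 in RC (permutation p = 7e-05) and 37.1 in AC (permutation p = 0.00022). Against somite number, Pearson's r was -0.76 in RC and -0.77 in AC, and Spearman's rho was -0.89 in RC and -0.84 in AC. Each of these 4 correlations had a permutation p = 1e-05, also after Benjamini-Hochberg adjustment. The stage most distant from the median stage was 37ss in RC and 4ss in AC, with 3 embryos each. Leaving out the first 2 of these by replicate number gave an r of -0.78 in RC and -0.67 in AC. An AC embryo of 4ss, whose ratio rests on the pseudocount, thus stayed in. Without the embryos of 4ss, r was -0.80 in RC (permutation p = 1e-05) and -0.79 in AC (permutation p = 3e-05).

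From 15ss on, the ratio was higher in RC than in AC at every shared stage, with no overlap of the embryos. Ratios of other gene pairs were not computed, so whether this is particular to the paralogs was not tested. Between the species, 9.93% to 23.3% of all genes were called at these stages. Whether RC reads of the paralogs were lost unequally in mapping to the AC genome was not tested either. At 15ss it was 1.26, 1.33 and 1.79 in RC and 0.861, 0.814 and 0.950 in AC. At 18ss it was 1.52, 0.956 and 1.18 in RC and 0.814, 0.829 and 0.709 in AC. Of the RC embryos from 15ss to 30ss, 12 of 18 had more counts of sox10a than of sox10b, against 0 of 18 AC embryos. In RC of 30ss the ratios were 1.07, 0.909 and 0.973, against 0.689, 0.625 and 0.595 in AC. The difference in the mean log2 ratio (RC minus AC) at 15, 18, 20, 22, 26 and 30ss was in this order 0.72, 0.61, 0.51, 0.38, 0.51 and 0.63. Each of these had a two-sided exact permutation p = 0.1, the smallest that 3 embryos against 3 allow.

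Over stages, the test of the ratio between the species depended on 4ss. With all 8 shared stages the mean difference RC minus AC was 0.04 on the log2 scale (two-sided permutation test within stages, p = 0.888). The AC ratios at 4ss have no measured denominator, and the value at that stage, -3.07 with the pseudocount of 1, is not a measured ratio. Over the 7 stages from 10ss on, the mean difference was 0.48 (permutation p = 1e-05, the smallest possible), with the ratio higher in RC at 6 of them. At 10ss, the exception, the difference was -0.01 (exact permutation p = 1). No other pair of genes was put to this test.

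**Figure D3:**
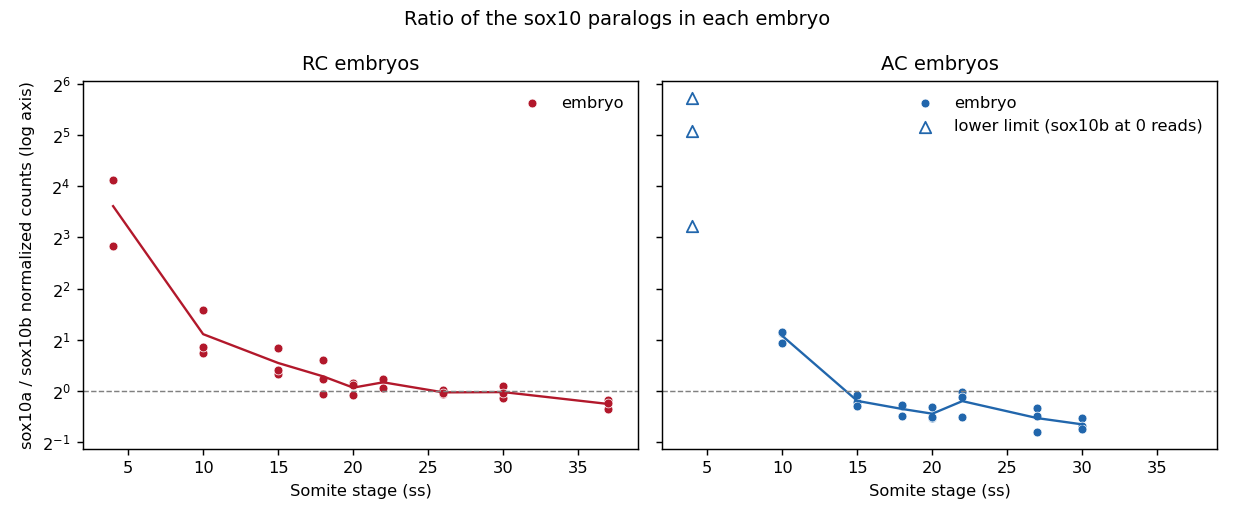
Ratio of sox10a to sox10b normalized counts in each embryo on a log axis, RC embryos left and AC embryos right, with a line through the stage means and a dashed line at 1. Open triangles are lower limits in AC embryos of 4ss, which had no read of sox10b. At 10ss the mean was 2.16 in RC and 2.11 in AC, and from 15ss all AC embryos were below 1 while 12 of 18 RC embryos up to 30ss were above.

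Among siblings the paralogs rose and fell together. Each embryo was set against the mean of its own group on the log2 scale. Over the 50 embryos, Pearson's r between the deviations of sox10a and sox10b was 0.45 and Spearman's rho 0.69 (permutation within groups, p = 5e-05 and 4e-05, both 5e-05 after adjustment over the pair). The 2 embryos with the farthest sox10a values were AC embryos of 4ss, in which sox10b could not vary, and without them r was 0.67. Within RC alone r was 0.68 (permutation p = 0.0118) and within AC alone 0.33 (permutation p = 0.00188). Without the embryos of 4ss r was 0.69 (permutation p = 0.00011). Outside AC of 4ss, 36 of 47 embryos (76.6%) deviated in the same direction in both genes. Both values of an embryo share its library and its size factor, and the part of these in the co-variation was not tested. Co-variation of other gene pairs was not computed, so whether it is particular to the paralogs was not tested either.

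**Figure D4:**
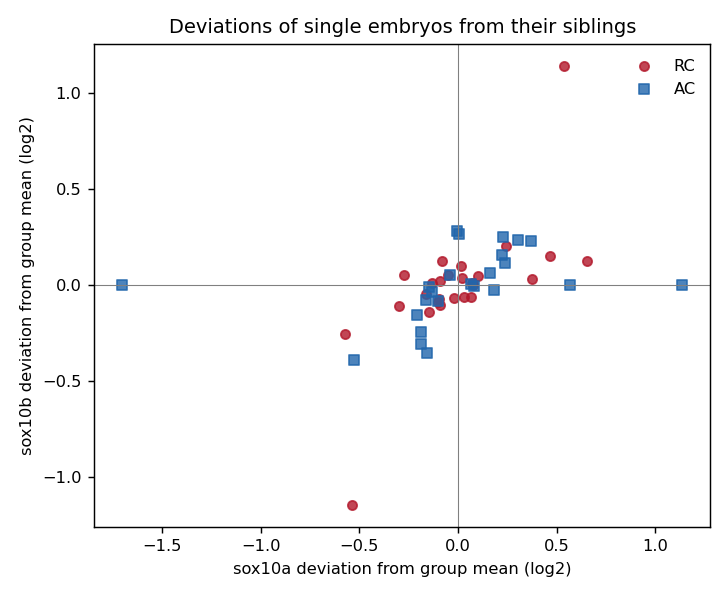
Deviation of sox10b against that of sox10a from the mean of the group, on the log2 scale, for each of the 50 embryos (RC circles, AC squares). Embryos with the same sign in both genes, 36 of the 47 outside AC of 4ss, lie at the lower left and the upper right, and the 3 AC embryos of 4ss lie on the horizontal line at 0 because sox10b had no read there.

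The genes most like each paralog were sought among the 233 other named genes that passed the filter, by the correlation of group means over the 17 groups, which is a description. These names come from lists of the study. The lists are made in part of NC, pigment and craniofacial genes that differed between the species, so the search favoured such genes. sox10a was most like pmelb (r = 0.93), followed by pmela (0.88), slc45a2 (0.86), oca2 (0.82) and mlpha (0.81). Among all 21211 other genes they stood at ranks 3, 13, 25, 75 and 80. pmela and pmelb encode the fibrous protein of the melanosome, a pigment organelle, slc45a2 and oca2 encode melanosome transporters, and mlpha a protein of melanosome transport. The cells that expressed these genes in the whole embryos were not identified. sox10b was most like erbb3b (r = 0.996), followed by nr5a2 (0.97), anxa6 (0.95), disc1 (0.94) and shha (0.91). Their ranks among all 21211 other genes were 1, 16, 41, 70 and 188. In zebrafish, erbb3b, a neuregulin receptor, is needed in NC cells for Schwann cells and for stem cells of the adult pigment pattern. The paralogs had r = 0.78 with each other, and sox10b stood at rank 139 among the 21211 other genes that passed the filter in likeness to sox10a, and sox10a at rank 1536 in likeness to sox10b. The group means share the jump between 4ss and 10ss. Without the groups of 4ss, 0 of the 5 genes most like sox10a and 1 of the 5 most like sox10b were among those named here.

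The levels of erbb3b and pmelb, chosen for their likeness, are a description only. erbb3b had 24.4 and 38.8 normalized counts in the RC embryos of 4ss and 0 to 5.19 in the AC embryos, of which the mean of 2.67 is under the limit of 3 reads. Its mean then reached 655 in RC and 539 in AC at 10ss, and 742 in RC and 421 in AC at 15ss. pmelb had its highest mean at 10ss in both species, with 306 in RC and 208 in AC. Of the other 4 genes most like sox10a, mlpha also peaked at 10ss in both species, slc45a2 and oca2 at 10ss in RC and 15ss in AC, and pmela at 15ss in both.

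**Figure D5:**
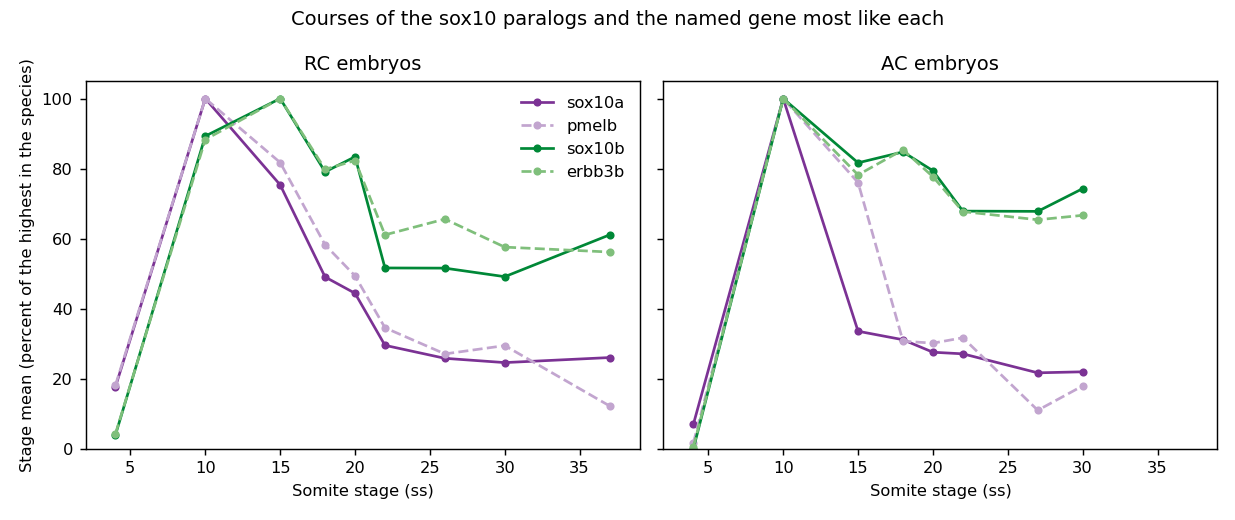
Stage means of sox10a, pmelb, sox10b and erbb3b as a percent of the highest stage mean of that gene in the species, RC left and AC right. From 10ss on the lowest value of sox10b was 49.1% in RC and 67.8% in AC and that of erbb3b 56.2% in RC and 65.4% in AC, while sox10a was at 24.6% in RC and 22.0% in AC by 30ss.

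Other genes of the NC program were taken from lists of 107 symbols, of which 29 genes could be matched to an identifier. Most of these names come from tables in which the study listed genes that differed between these same embryos, so their counts in comparisons of the species are not independent evidence. At 4ss, 1 of 8 NC specifiers was higher in RC and 2 were lower, with a median log2 fold change of -0.07 beside 0.02 for all genes tested, of which 9.7% were called lower. foxd3, an early NC specifier, had a mean of 866 normalized counts in RC and 168 in AC (log2 fold change 2.38, SE 0.41, adjusted p = 2.4e-05, limma). prdm1a, which in zebrafish acts upstream of foxd3 and sox10 in NC cells, was lower, with 1274 in RC and 2295 in AC (-0.83, adjusted p = 0.00438, limma), a call that was lost without RC replicate 3 (-0.74). zic2a, a gene of the neural plate border named after its values were seen to complete the count, was lower as well (-0.75, adjusted p = 0.0327, limma) and lost its call without AC replicate 3 (-0.42) and without either RC replicate. dicer1, the enzyme that processes microRNAs, had 1052 in RC and 1743 in AC (-0.73, adjusted p = 0.00175, limma). It was not called under quantile normalization (-0.54). sox9b, of the soxE family, had 1701 in RC and 826 in AC (1.09, adjusted p = 0.00267, limma), and without RC replicate 3 the value was 0.76 and not called. Of the 3 glia and enteric neuron genes matched, foxd3 and erbb3b among them, 2 were higher in RC and 1 was lower at 4ss. None of the 4 xanthophore and iridophore genes matched was called at 4ss.

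Melanophores are black pigment cells, but the cells that expressed the genes of the melanophore list in these whole embryos were not identified. At 4ss, 5 of 12 melanophore genes were higher in RC and none lower, beside 15.7% and 9.7% of all genes, with a median log2 fold change of 0.78 beside 0.02 for all genes. Among them was pmelb, with a mean of 55.7 normalized counts in RC and 3.46 in AC. Between 4ss and 10ss, 6 of 12 melanophore genes rose and none fell in RC, and 11 of 12 rose and none fell in AC, or 5 with only the groups compared in the fit, while 10.2% of all genes in RC and 20.9% in AC were called higher. Of all calls in the AC step, 71.1% were higher, and 56.1% under quantile normalization. The median log2 change of the list was 1.19 in RC and 2.42 in AC. The RC count rested on single embryos, with 1 of 12 without RC replicate 3 and 3 without RC replicate 1. slc45a2 had a mean of 285 normalized counts at 10ss and 39.4 at 4ss in RC, and 206 at 10ss and 12.5 at 4ss in AC. tyrp1b rose in RC by 2.49 on the log2 scale, a call that was lost with other pseudocounts, with only the groups compared, without RC replicate 1 (1.31) and without RC replicate 3 (2.61). mitfa, the regulator of melanophore fate that Sox10 activates in zebrafish, was low, with no group mean above 71.6 normalized counts, and it rose over this step by a log2 change of 2.34 in RC (adjusted p = 0.0222, limma) and 2.45 in AC (adjusted p = 0.00233, limma). The AC call of mitfa was lost without AC replicate 3 (1.42, adjusted p = 0.173) and with only the groups compared (adjusted p = 0.134). Its RC call was not checked with the alternatives, so it cannot be taken as the more stable of the 2. Between 10ss and 30ss, 4 of 12 fell and 1 rose in RC, and 9 of 12 fell and none rose in AC, where 6.11% of all genes in RC and 7.59% in AC were called lower. Quantile normalization moved this background to 17.5% in RC and 18.7% in AC, as the share of calls that were higher was 46.7% in RC and 45.4% in AC with it, and 80.1% in RC and 76.2% in AC without it, and the median of all genes moved to -0.18 in RC and -0.17 in AC, against 0.10 in RC and 0.08 in AC. In AC the largest change was that of tyr, the tyrosinase of melanin synthesis (-3.86, adjusted p = 2.9e-10, limma). tyrp1a, another melanin synthesis gene, fell in both species, by a log2 change of -2.96 in RC (adjusted p = 3.87e-06, limma) and -3.53 in AC (adjusted p = 1.35e-07, limma). tyrp1b, its paralog, was the one that rose in RC (4.28, adjusted p = 8.9e-06, limma). By the last RC stage, 37ss, 10 of 12 melanophore genes were called lower than at 10ss and 1 higher. Their median log2 change was -2.07, beside 0.10 for all genes, of which 33.6% were called in either direction. The share of all genes called lower over this span is not given. Whether the count holds under quantile normalization or without single replicates was not tested. The 2 somite markers matched, myf5 and meox1, both fell between 10ss and 30ss in each species. Other lists were mixed between 10ss and 30ss. Over this span 30.7% of all genes in RC and 31.9% in AC were called. Of these calls 80.1% in RC and 76.2% in AC were higher, so the counts of higher genes below are a description only. Of the 4 xanthophore and iridophore genes, 2 were called higher in RC and 1 in AC. Their median log2 change was 1.06 in RC and 0.79 in AC. Of the 3 glia and enteric neuron genes 1 was called higher in each species, but the median was -0.52 in RC and -0.46 in AC. None of either list was called lower. Of the 8 NC specifiers, 2 were called higher and 2 lower in RC, and 2 higher and 4 lower in AC.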

How the data were processed

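Single whole embryos were sequenced as bulk RNA, and the authors counted reads per gene after mapping all of them, RC included, to the A. calliptera genome. The deposited table holds normalized counts, a signal that the authors made by dividing read counts by DESeq2 size factors, and whole reads were recovered from it for 100% of values within 0.1 read. The 17 columns of group means were not used. Groups were taken from the labels, and 2 RC embryos of 4ss were in the files used here. Genes reaching 10 normalized counts in 2 or more embryos were tested with limma 3.58.1 (R 4.3.3, trended variance) on log2(normalized count + 1), with Benjamini-Hochberg adjustment over all genes tested. Comparisons of the species used the 47 embryos from 4 to 30ss and those of stages all 50. Every pair of replicates differed by more than sampling noise. Ratios, correlations and co-variation were tested by exact enumeration or 100000 permutations in Python 3.11.15 with scipy 1.17.1. Intervals and limits for a count of 0 cover counting error only.

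The members and gene lists were chosen with earlier results of these data known. The plan was to name the 2 called genes with the largest absolute change per list and comparison described. This was not done for every list and comparison. Also named were foxd3, prdm1a, mitfa, erbb3b and sox9b, and the 5 genes with a symbol most like each paralog. Alternatives were edgeR 4.0.16 and DESeq2 1.42.0 on the recovered reads, other pseudocounts, filters and normalization, only the groups compared, a replicate block and leaving out each replicate. Fits without the embryos of 4ss were added after seeing the data. On the recovered reads, edgeR called 5058 genes and DESeq2 5308 genes between the species at 4ss, and limma called 5370. The code was tested on simulated data.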

Additional observations from a re-analysis of the deposited data

Results flagged for a closer look

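The interaction term of species and the step between 4ss and 10ss passed the threshold for both paralogs, as for 11.3% of all genes. The RC step minus the AC step was -1.69 for sox10a (adjusted p = 0.0443, limma) and -4.74 for sox10b (adjusted p = 1.70e-10, limma), the size of which depends on the pseudocount since AC embryos had no read of sox10b at 4ss. That of sox10a was lost in 11 of 16 alternative fits, among them every fit without an RC replicate, and that of sox10b with only the groups compared (adjusted p = 0.0644, limma). The species difference of sox10b also varied with stage over the 8 shared stages (F = 32.7, adjusted p = 3.30e-10, limma), and without the embryos of 4ss F was 3.63 (adjusted p = 0.0603, limma).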

How the results depend on the processing

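In the fits of both paralogs, 872 of 938 alternative values kept the direction and the side of the threshold, and where a value did not, the cause was not tested. These alternatives include the main fit with no fold threshold, which repeats the same values and adjusted p, so its agreement is not an independent check. It is also among the 16 or 17 alternative fits counted for single results. Most of the 938 values belong to comparisons not called in the main fit, where keeping the side means staying uncalled. Leaving out a replicate of 1 species cannot move a log2 change within the other species. The total is thus not a measure of how stable the calls were. With only the groups compared in the fit, calls were lost for sox10a at 4ss (1.92), its RC step between 4ss and 10ss (2.51) and the step differences of sox10a (-1.69) and sox10b (-4.74), and calls were gained for sox10a at 18ss (0.90) and 20ss (0.98), sox10b at 15ss (0.68), the RC step between 20ss and 22ss (sox10a -0.59, sox10b -0.69) and sox10a in RC of 18ss over AC of 15ss (0.80). Without the embryos of 4ss, added after seeing the data, calls were gained with the same values at 15ss (sox10b), 18ss and 20ss (sox10a), in that RC step (sox10b) and in that pair (sox10a), and F of sox10b was 3.63 and not past the threshold. With DESeq2 and edgeR, calls were gained at 15ss for sox10b (0.68 and 0.72), 18ss for sox10a (0.92 and 0.94) and 20ss for sox10a (0.96 and 0.95), with DESeq2 in the RC step between 20ss and 22ss for sox10b (-0.69) and with edgeR between 10ss and 37ss for sox10b in RC (-0.63). The sign of sox10b at 22ss (-0.0085 and -0.0275) and 26ss (-0.0061 and -0.0183) turned. Quantile normalization gained sox10a at 18ss (0.86) and 20ss (1.01). The step difference of sox10a was not called with DESeq2 (-1.36), edgeR (-1.41), no filter (-1.69), a pseudocount of 10 (-1.54) or quantile normalization (-1.17). sox10b at 15ss was called when the filter used species means (0.68) and a pseudocount of 10 (0.67).

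The overall species difference in ratio was -0.37 with a pseudocount of 0.1, 0.37 with 10 (permutation p = 0.00529) and 0.48 without 4ss. Quantile normalization put the first stage of sox10a at 10% of its peak in AC at 4ss and sox10b at 30ss in RC at 46.3% of its peak. With medians these RC values were 28.1% for sox10a and 51.6% for sox10b, whose peak was at 10ss. Of the 5 genes most like sox10a, 0 were shared without the groups of 4ss, and of those like sox10b 1 without 4ss and 1 with Spearman's correlation. With only the groups compared, 5 melanophore genes rose in AC between 4ss and 10ss and 7 fell in RC between 10ss and 30ss, and the calls at 4ss of prdm1a, zic2a, sox9b, erbb3b and pmelb were lost. mitfa at 4ss was 0.50 with a pseudocount of 0.1 and -0.18 with 1.

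Leaving out 1 replicate at a time gave RC over AC values of 1.06 to 2.48 at 4ss, -0.10 to 0.51 at 10ss, 1.17 to 1.55 at 15ss, 0.71 to 1.04 at 18ss and 0.87 to 1.16 at 20ss for sox10a, and of 0.60 to 0.73 at 15ss, -0.16 to 0.16 at 22ss and -0.12 to 0.13 at 26ss for sox10b. For sox10a the AC step between 10ss and 15ss ran over -1.75 to -1.32, the RC step over -0.63 to 0.049, the RC step between 30ss and 37ss over -0.0028 to 0.14, the RC span between 4ss and 30ss over -0.0019 to 1.101, RC of 15ss over AC of 10ss over -0.40 to 0.016 and the step difference over -2.15 to -1.103. For sox10b the RC span between 10ss and 30ss ran over -0.95 to -0.80, that between 10ss and 37ss over -0.72 to -0.42, RC of 30ss over AC of 22ss over -0.23 to 0.087 and RC of 37ss over AC of 30ss over -0.033 to 0.25. The overall ratio difference ran over -0.050 to 0.12, the RC peak stage of sox10a over 10 to 15ss, the RC level at 30ss over 20.3% to 31.6% of the peak for sox10a and 47.9% to 51.3% for sox10b, the shared genes most like sox10a over 3 to 5 and the melanophore genes that rose in RC between 4ss and 10ss over 1 to 8. foxd3 ran over -0.49 to 1.08 in that RC step and over -0.93 to 0.28 in RC between 10ss and 30ss, and mitfa at 4ss over -0.92 to 0.70.

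With the replicate block, 91 of 92 values were tallied as having the same call. These values include other named genes and some counts of genes. The counts have no call, so they could not differ in this tally. sox10b at 15ss (0.68) was called with the block (adjusted p = 0.0318, limma). Between AC and RC embryos of the same stage, 4 of 23 pairs of equal number had a correlation of deviations above 0.1. The mean was 0.0362 and the highest 0.365, beside a mean of -0.018 for pairs of unequal number. Whether equal numbers go together across the stages of a species was not tested. With only the groups compared, fewer genes were called over the whole table, with 1446 against 5370 at 4ss, 3093 against 4913 at 15ss, 3725 against 6246 and 384 against 3009 in the AC and RC steps between 4ss and 10ss, 241 against 1757 in the AC step between 10ss and 15ss, and 17 against 2392 for the step difference, for which quantile normalization gave 819. Without single replicates the step difference gave 869 to 3769 genes, the RC step between 4ss and 10ss 1344 without RC replicate 3 and the AC step between 10ss and 15ss 910 and 926 without AC replicates 2 and 1. With no fold threshold 2997 genes were called in that AC step. The values of sox10b at 4ss rest on 12 and 78 reads in RC and 0 in AC, which limits their precision.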
